A study of Caenorhabditis elegans with 4 samples.

Results

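The regions described here are the places on chromosome III of *Caenorhabditis elegans* where a peak of the transcription factor DPL-1 was listed after chromatin immunoprecipitation and sequencing (ChIP-seq). They were taken by chromosome name alone from the list that combines both ChIP replicates, with an interval entered more than once counted as 1 region. This gave 676 regions, out of 3192 on all 6 chromosomes. The replicate 1 list held 4010 regions on chromosome III out of 24364, and the replicate 2 list held 4689 out of 29997.

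Both ChIP libraries came from fed L1 hermaphrodites, the first larval stage, of strain YL448 grown at 20 °C and fixed with 2% formaldehyde. The strain has the genotype unc-119(ed3) III and carries the insertion vrIs83, in which pGES-1 drives DPL-1 fused to GFP and 3xFlag, beside an unc-119(+) marker. Antibodies against GFP collected the tagged protein, and 2 input libraries of the same strain, prepared from total chromatin, had no list and are not analysed here. All 4 libraries share this genotype, so no untagged strain stands beside the ChIP libraries. The labels give 0 outcrosses for the strain, and they are silent on whether each replicate had its own culture, so the spread between replicates may be technical.

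DPL-1 belongs to the DP proteins, which pair with E2F factors on DNA. In worms it acts with the E2F factor EFL-1 and the retinoblastoma-like protein LIN-35 in the DREAM complex, which holds down genes of the cell cycle and of the germ line. The ges-1 promoter is active in the intestine, whose nuclei copy their DNA repeatedly during larval growth, so the tagged protein was that made under an intestinal promoter. The unc-119 gene lies on chromosome III, and reads from the marker copy in the transgene would map to it; whether a region listed here lies at that gene was not examined. Worm autosomes have gene-rich centres and arms with more repeats and more recombination, which is the background for describing position along the chromosome. Positions are those of WormBase build WS220, as the files give them. No gene or sequence is assigned to a region, since no genome or annotation of that build was used here.

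Chromosome III was densely covered. Its 676 regions lay within a span of 13.8 Mb, taken from the first to the last interval of any of the 3 lists, which is 49.0 regions per Mb (95% exact Poisson interval 45.4 to 52.9). The other chromosomes together had 29.1 per Mb (28.0 to 30.3). Chromosome III thus held 21.2% of all regions (95% exact binomial interval 19.8 to 22.6) and 13.8% of the span. Chromosome I, at 45.8 per Mb (42.4 to 49.3), had an interval that overlapped that of chromosome III, while those of chromosomes II (35.6 per Mb), IV (29.8), V (21.6) and X (17.6) lay below it. In the longer replicate lists the density on chromosome III was 291 per Mb (282 to 300.1), against 236 (232 to 239) elsewhere, in replicate 1. In replicate 2 it was 340.2 per Mb (331 to 350.1), against 293 (289 to 297) elsewhere. The lists give no read counts, so the depth behind a peak is unknown, and these intervals cover the counting of regions only. Neighbouring regions are not independent replicates, and differences between chromosomes were not tested.

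**Figure D1:**
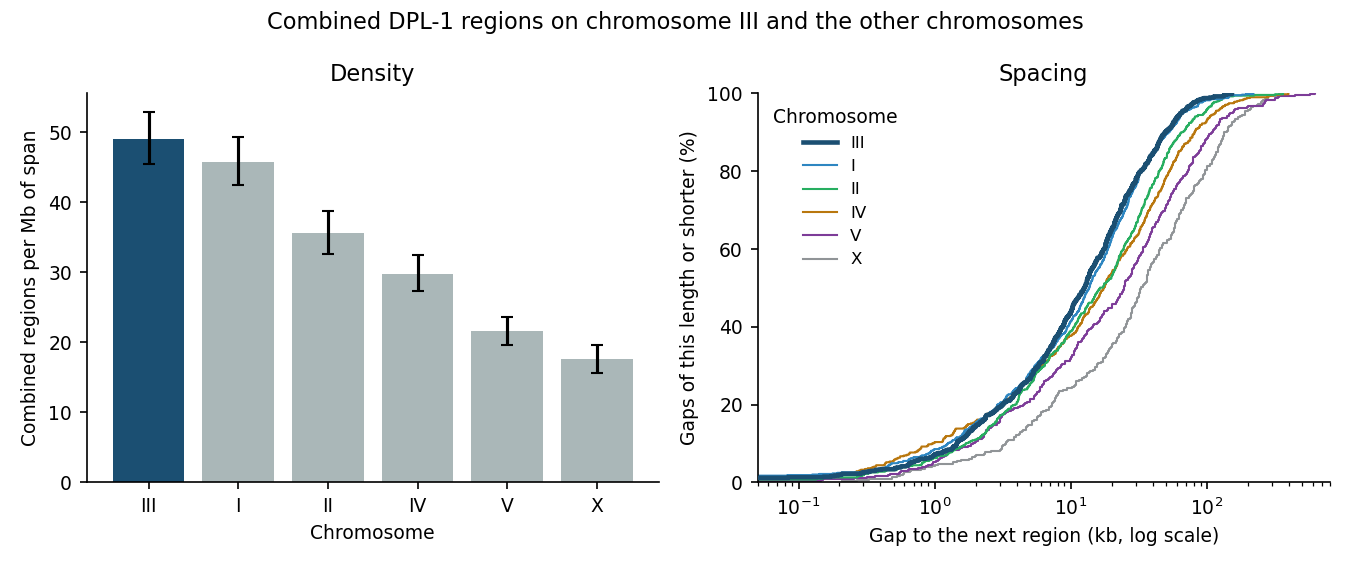
Left, combined regions per Mb of span on each chromosome, with 95% exact Poisson intervals as error bars; chromosome III stands at 49.0 and X at 17.6. Right, the share of gaps between neighbouring regions (percent) that are at most as long as the value on the log axis (kb); the curves of chromosomes III and I run close together, with medians of 12564 and 13656 bp.

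The regions were denser in the middle of chromosome III than towards its ends, and the ends differed from each other. Of the 676 regions, 409 (60.5%, 95% exact binomial interval 56.7 to 64.2) had their midpoint in the central 50% of the span, between positions 3446654 and 10337875. The regions of the other chromosomes had 58.1% (56.2 to 60.05) there, and the intervals overlapped. Cut into 4 equal parts, the chromosome III span held 104, 197, 212 and 163 regions from the low to the high coordinates. These are 30.2 (24.7 to 36.6), 57.2 (49.5 to 65.7), 61.5 (53.5 to 70.4) and 47.3 (40.3 to 55.2) regions per Mb. The low-coordinate end was the sparse one. It held 39.0% (33.1 to 45.1) of the 267 regions outside the central 50%. The single replicates showed the same imbalance when each list was limited to its 3195 lowest peak numbers. Replicate 1 then had 98 regions in the first part and 171 in the last part, a ratio of last to first of 1.74, and replicate 2 had 101 and 162, a ratio of 1.60. Over the whole replicate lists the ratio was smaller, at 1.19 in replicate 1 (875 and 1037) and 1.27 in replicate 2 (946 and 1199).

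The imbalance between the ends was not the same on every chromosome. In the combined list, the last part held 1.57 times as many regions as the first part on chromosome III, 2.18 times as many on II and 1.44 times as many on X. It held 0.84 times as many on I, 0.82 on V and 0.49 on IV. Whether these ratios differ was not tested.

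**Figure D2:**
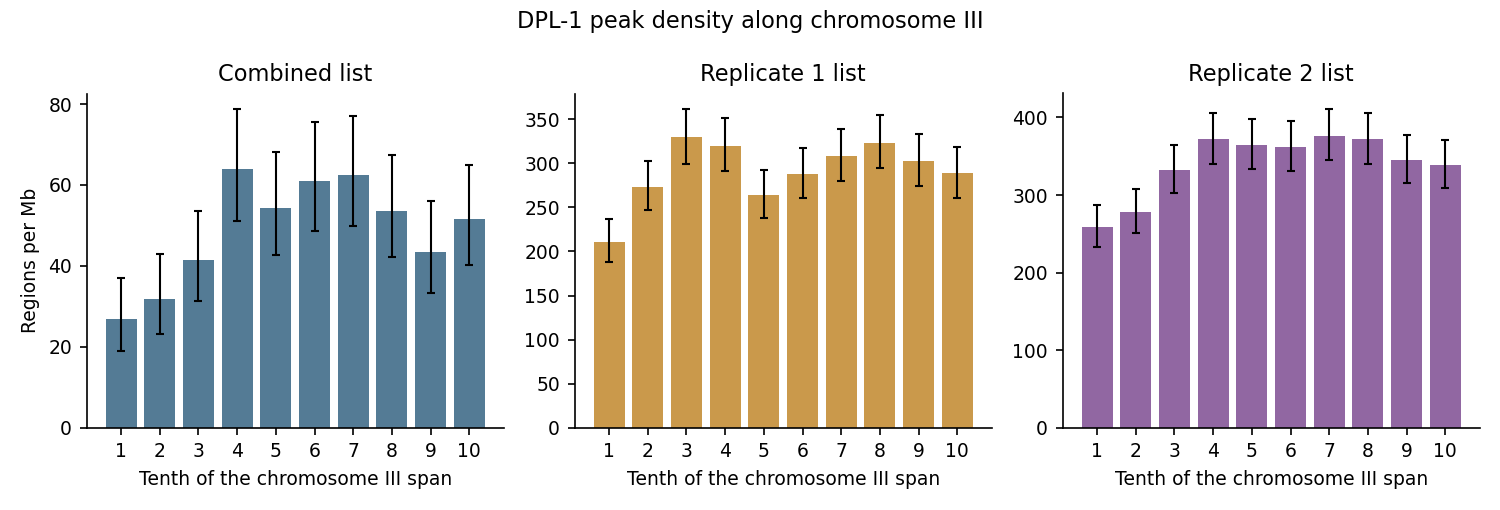
Regions per Mb in 10 equal parts of the chromosome III span, from low to high coordinates, in the combined list and in each replicate list, with 95% exact Poisson intervals as error bars. In the combined list the bars run from 26.8 per Mb in the first part to 63.8 in the fourth, and the replicate lists are flatter, with 211 to 329 and 259 to 377 per Mb.

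Peaks of a replicate list that lay on no combined region, called unlisted here, were spread more evenly along chromosome III. In replicate 1, 60.4% (56.8 to 64.03) of the 723 peaks on a combined region lay in the central 50% of the span, beside 50.5% (48.8 to 52.3) of the 3287 peaks on none. In replicate 2 it was 60.3% (56.5 to 63.9) of the 695 peaks on a combined region, beside 53.2% (51.6 to 54.8) of the 3994 on none. The low-coordinate part held 15.1% of the replicate 1 peaks on combined regions, against 23.3% of the unlisted ones. In replicate 2 these shares were 15.8% on combined regions and 20.9% for the unlisted peaks. Among the unlisted peaks, 1132 of replicate 1 and 1127 of replicate 2 shared at least 1 bp with the other replicate. These were 28.2% and 24.0% of all chromosome III peaks of these lists. On the single other chromosomes such peaks made up 26.2% (X) to 27.8% (IV) in replicate 1. In replicate 2 they made up 19.8% (X) to 23.4% (IV). None of the unlisted peaks was among the 1000 lowest numbers of its list, on chromosome III or on any other. In replicate 1 the 3 lowest numbers on chromosome III were 2128 at 13548848 to 13549191, 2356 at 621242 to 621585 and 2377 at 4560567 to 4560910. In replicate 2 they were 1815 at 9766144 to 9766427, 2137 at 3705015 to 3705298 and 2247 at 7272867 to 7273150. The replicate 2 peaks 1815 and 2247 lay 471 and 444 bp from a combined region, while the other 4 lay between 2272 and 27307 bp from one.

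Neighbouring regions on chromosome III were most often separated by several kilobases. The 675 gaps, measured from the end of a region to the start of the next, had a median of 12564 bp and quartiles of 4403 and 27132 bp. On the other chromosomes together the median was 18301 bp, and on single chromosomes it ran from 13656 bp on I to 32833 bp on X. The longest gap on chromosome III was 153085 bp, between the region ending at 9240264 and the one starting at 9393350. The next were 140254 bp after 1950551 and 133779 bp after 1284920. The region before the second of these, at 1950252 to 1950551, was one of the strongest of the chromosome, with number 32. Every other chromosome held a longer gap than these, from 219931 bp on I to 620556 bp on V.

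Part of the members had a near neighbour. On chromosome III 172 regions (25.4%) lay within 2 kb of another, and on the other chromosomes 571 of 2516 (22.7%) did. The single chromosomes of this pool differed. Gaps under 2 kb made up 14.4% of the gaps on III, beside 15.1% on I and 15.8% on IV. The share was lower on II (11.05%), V (10.7%) and X (6.8%). Near neighbours were thus not particular to chromosome III. The 172 regions of chromosome III formed 58 pairs, 13 groups of 3 and 4 larger groups. The largest group had 5 regions between 1921221 and 1926771, numbered 702, 2933, 977, 948 and 1159. Regions with a near neighbour had a median number of 1496 in the combined list and the others 1422. Their best matches had medians of 1432 and 1417 in replicate 1, and of 1282 and 1432 in replicate 2, so the order of the medians was not the same in both libraries. A replicate peak lying on 2 neighbouring regions could be the best match of both. Number 621 of replicate 1, for example, was counted for the regions numbered 702 and 2933.

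In 8 pairs the regions overlapped, by 24 to 125 bp. The overlap of 125 bp joined the regions at 4237653 to 4237976 (number 937) and 4237852 to 4238175 (number 3189). The others began at 349492, 1921221, 4282009, 6009001, 6280118, 6551347 and 9618979. Replicate 1 listed 2 peaks at each of the 8 pairs. Replicate 2 listed 2 peaks at 6 pairs and 1 peak at the pairs beginning at 4237653 and 6009001. The closest pairs without overlap were 84 bp apart at 8800148, 152 bp at 12369242 and 173 bp at 9825762.

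The densest stretches lay in the central part. In fixed windows of 100 kb chromosome III had 4.90 ± 2.53 regions (SD over 138 windows), against 2.90 ± 2.36 over 867 windows of the other chromosomes. Chromosome I alone had 4.56 ± 2.52. The fullest window held 14 regions on II, 13 on I, 12 on IV, and 8 on V and on X. On chromosome III the fullest window, from 7100001 to 7200000, held 13 regions with numbers from 248 to 3027. Of these 13 regions, 6 were among the 1000 lowest numbers. The gaps of this window ran from 640 to 16605 bp, and all 13 regions had a match in both replicates. The next windows were 9600001 to 9700000 with 12 regions and 8800001 to 8900000 with 11. In the second of the 3 the median gap was 1745 bp, so its regions stood in tight groups, while in the window of 13 it was 5888 bp. The window of 13 regions held 31 peaks in replicate 1 and 43 in replicate 2, against medians of 29 and 33 over all 138 windows. By peak count it was in place 53 of the 138 windows in replicate 1 and in place 16 in replicate 2. Over the 138 windows the combined counts had a Spearman rho of 0.54 with those of replicate 1 and 0.62 with those of replicate 2, a description of lists that share their libraries. The 3 windows with no combined region began at 1300001, 2200001 and 11400001. The first of these had 10 peaks in replicate 1 and 15 in replicate 2, and the third had 30 and 36, so the third was not sparse in weak peaks.

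The authors numbered the peaks of each list from 1, and the number rises as their score falls, so number 1 was taken as the strongest. The score has a ceiling, which 556 of the 676 regions (82.2%) reached, beside 78.7% of those on the other chromosomes. The number therefore orders most of the members. Chromosome III, with 21.2% of all combined regions, held 251 of the 1000 lowest numbers, which is 25.1% (22.4 to 27.9). Its share was 19.5% (17.1 to 22.1) among regions numbered 1001 to 2000 and 19.3% (17.1 to 21.6) from 2001 on. The 1000 lowest numbers of the replicate lists gave 24.9% (22.2 to 27.7) in replicate 1 and 25.4% (22.7 to 28.2) in replicate 2, where chromosome III held 16.5% and 15.6% of all regions of these lists. Of the 100 lowest numbers 25 lay on chromosome III in each of the 3 lists, with an interval of 16.9 to 34.7%. Chromosome II held 26 of them in the combined list, 27 in replicate 1 and 23 in replicate 2, so a high count there was not particular to chromosome III. The median number was 1443 on chromosome III and 1634 on the other chromosomes together. That pool includes X, which had a median of 2008 and held 9.7% of all regions but 3.9% of the 1000 lowest numbers. On chromosomes I, II, IV and V the median ran from 1533 to 1599.

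The 10 strongest members were near the top of both replicate lists. Their numbers in the combined list ran from 1 to 34, and their matches had numbers up to 38 in replicate 1 and up to 55 in replicate 2. Their nearest other region was 2035 to 23480 bp away. Among the 25 strongest, 6 had another region within 2 kb, a share close to the 25.4% over all members. The midpoints of the 10 lay at most 13 bp from those of their replicate peaks. The strongest, at 3867354 to 3867747, led the replicate 1 list and was number 2 in replicate 2. The region at 7854440 to 7854784, next in rank, was number 3 in replicate 1 and led the replicate 2 list. The region at 10758963 to 10759343 was number 4 in all 3 lists. Next came 12904924 to 12905263 with number 13, 8741412 to 8741744 with 16 and 4756992 to 4757305 with 24. The last 4 were 1859570 to 1859870 with number 26, 11007647 to 11007949 with 29, 1950252 to 1950551 with 32 and 4962929 to 4963246 with 34. Of these 10 regions, 5 lay in the central 50% of the span.

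Strength and position showed no common direction. The median number was 1456 in the central 50% and 1437 outside it. The matching peaks had medians of 1432 in the centre and 1401 outside it in replicate 1, and of 1396 and 1431 in replicate 2, so the libraries differed in direction. The central share was 59.8% (53.4 to 65.9) among the 251 regions numbered 1 to 1000 and 61.3% (54.7 to 67.6) among the 230 numbered 2001 or higher. Among the 25 regions numbered 1 to 100 it was 48% (27.8 to 68.7), too few regions to tell the centre from the ends.

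Width varied with the number in steps that overlapped. Most members, 470 of 676 (69.5%), were exactly 324 bp wide, while 197 were narrower and 9 wider. The 25 members among the 100 lowest numbers were 267 to 394 bp wide. Width then fell as the number rose, to a median of 168 bp for numbers 501 to 1000, and the narrowest intervals were 81 bp. That median mixes 2 kinds of interval, since 50 of the 127 members were 324 bp wide. The width of 324 bp first appeared at number 599, and narrower intervals continued to number 1336. From number 1501 on, all 324 members had the single width of 324 bp. The other chromosomes followed the same course, with medians of 298 bp for the 100 lowest numbers and 182 bp for numbers 501 to 1000, and 99.7% at the single width from 1501 on.

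**Figure D3:**
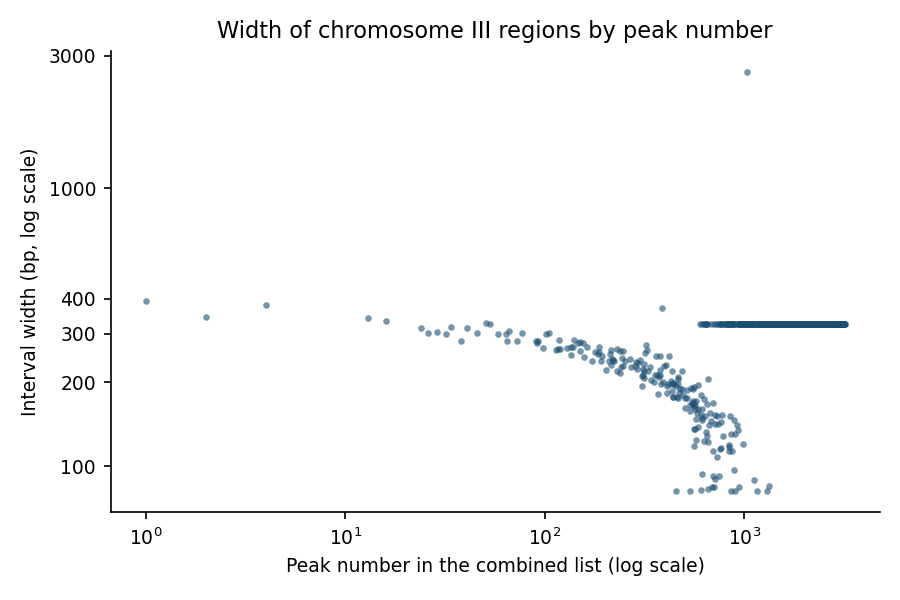
Width of each of the 676 chromosome III regions in bp against its peak number in the combined list, both on log axes. Widths fall from 394 bp at number 1 to 81 bp in numbers 453 to 1301, and the single point at 2632 bp is the wide interval. The line of points at 324 bp starts at number 599, and narrower regions continue to number 1336.

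A single interval was far wider than the rest. It ran from 7814284 to 7816915, 2632 bp, at 56.7% of the span, and the next widest member was 394 bp. The combined list gave it 3 numbers, 1029, 1232 and 2380. Replicate 1 listed an interval of 2607 bp there, from 7814292 to 7816898, under the numbers 1125 and 1425. Replicate 2 listed 2602 bp, from 7814298 to 7816899, under the numbers 882, 977, 1215 and 1615. The ends in the 3 lists thus nearly coincided, and every entry had the ceiling score of its list. No interval on another chromosome was wider than 590 bp in any of the lists. Its neighbours in the combined list were number 1123, 42979 bp before it, and number 2290, 11986 bp after it. Within 50 kb of its centre there were 6 other combined regions, among them number 2 of the whole list, which started 38.8 kb after the centre. Replicate 2 had a weak peak only 188 bp before the wide interval, number 19168, where the nearest preceding peak of replicate 1 was 8423 bp away. What the genome holds at this interval was not examined.

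**Figure D4:**
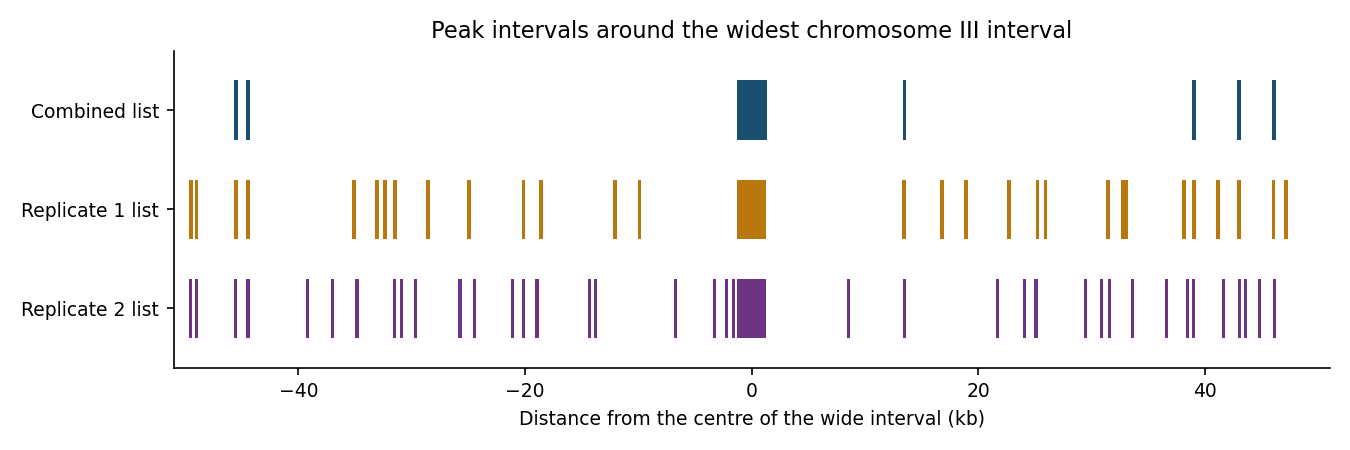
Intervals of the 3 lists within 50 kb of the centre of the wide interval, drawn to scale by their distance from that centre in kb. The wide block in the middle is present in all 3 lists, with 6, 29 and 38 other intervals around it in the combined, replicate 1 and replicate 2 lists.

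Nearly every chromosome III region was found again in the replicate lists. A replicate 1 peak shared at least 1 bp with 675 of the 676 regions (99.9%) and a replicate 2 peak with 672 (99.4%), beside 99.6% and 99.2% of all 3192 regions. Both lists had a match for 671, or 99.3% (95% exact binomial interval 98.3 to 99.8), and over all chromosomes the share was 98.8%. When a match had to cover at least 50% of both intervals, 600 regions (88.8%) kept a match in both lists, and 89.1% did over all chromosomes. The members numbered 501 to 1000 had the lowest share under that demand, 64.6% of 127, beside 60.6% of 373 on the other chromosomes. The median width of these 127 members was 168 bp, though 50 of them were 324 bp wide. Since the combined list was made from the same libraries, this overlap is a description and not a check. The best match, the overlapping peak with the lowest number, had its midpoint a median of 9 bp away in replicate 1 and 11 bp in replicate 2. Distances were shorter for the 251 regions numbered 1 to 1000, with medians of 6 and 7 bp, than for the 230 numbered 2001 or higher, with 16 and 24 bp. Several peaks of replicate 1 fell on 66 of the regions (9.8%), and several of replicate 2 on 32 (4.7%). On the other chromosomes the shares were close to these, at 8.9% and 5.3%.

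The 5 regions missing from a list had combined numbers of 1930 or higher. Replicate 2 had no peak at 5550229 to 5550552 (number 3128), 6722216 to 6722539 (number 2954), 8799825 to 8800148 (number 1930) and 13359754 to 13360077 (number 2848). Replicate 1 had none at 8800233 to 8800556 (number 3008). This last region and the one numbered 1930 are the pair that stood 84 bp apart. A replicate 1 peak numbered 1287 lay on the first of the pair, and a replicate 2 peak numbered 1616 on the other. Each replicate thus had 1 peak at the place, shifted against the other. For the remaining 3 regions the nearest replicate 2 peak was 272 to 1802 bp away, with numbers from 8712 to 20969.

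The replicates ordered the chromosome III regions in a similar way, with a wide scatter among the weak ones. Over the 671 regions with both matches, the numbers in the 2 lists had a Spearman rho of 0.85, beside 0.82 over the 2484 such regions on the other chromosomes. On the single other chromosomes rho ran from 0.63 on X to 0.86 on V. These are descriptions across regions, which share 1 pair of libraries and were selected by the combined list. For 583 regions (86.9%) the larger of the 2 replicate numbers was at most 2 times the smaller, and the median ratio was 1.29. The other chromosomes had nearly the same values, 86.9% and 1.30. The lists differ in length, with 24366 and 30000 rows, and the ratio was not adjusted for this. The ratio had a median of 1.22 for regions numbered 1 to 1000 and 1.44 for those from 2001 on. For the 25 regions numbered 1 to 100 it was 1.42. In 10 of the 671 regions the ratio was above 5, beside 44 of the 2484 on the other chromosomes. All 10 on chromosome III had combined numbers of 2154 or higher. Replicate 1 had the lower number in 8 of the 10. The widest ratio, 8.36, belonged to the region at 4317032 to 4317355, which was number 16021 of the replicate 1 list and number 1917 of the replicate 2 list. At 12019977 to 12020300 the numbers were 1958 in replicate 1 and 15995 in replicate 2, and at 3396130 to 3396453 they were 1573 and 11863. A best match numbered above 5000 occurred for 12 regions (1.8%) in replicate 1 and for 33 (4.9%) in replicate 2, and for none in both. On the other chromosomes these shares were 3.1% and 5.1%, again with none in both.

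**Figure D5:**
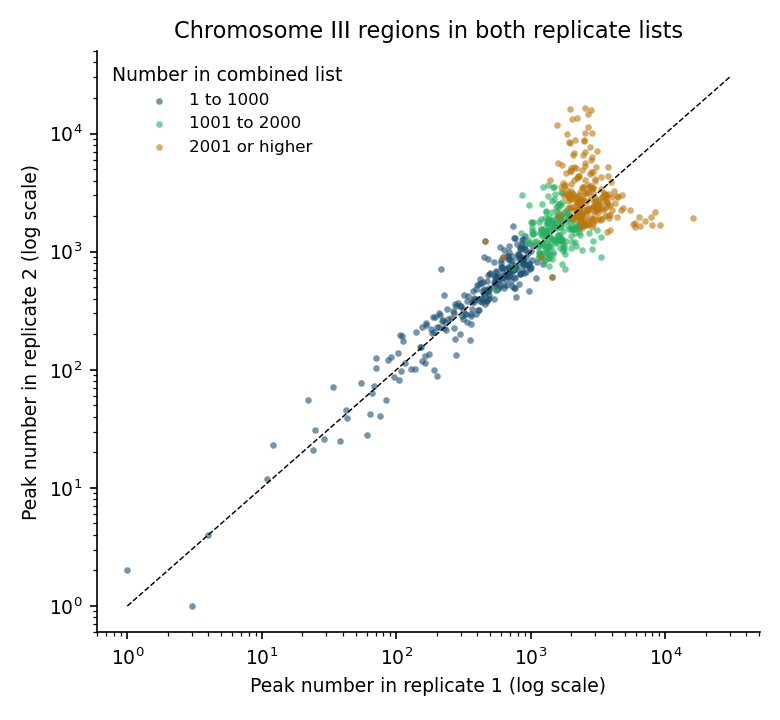
Peak number of the best match in replicate 1 against that in replicate 2 for the 671 chromosome III regions found in both lists, on log axes, coloured by the number in the combined list; the dashed line marks equal numbers. Points with combined numbers of 1 to 1000 follow the line, and those from 2001 on fan out, with 33 above number 5000 in replicate 2 and 12 in replicate 1.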

How the data were processed

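The peak lists of the 2 ChIP libraries and the list of both combined were used, with samples grouped by their titles. Per the file headers, the intervals refer to WormBase WS220. The authors deposited them for each replicate and for both combined. The method column names SPP, a peak caller, and IDR, which compares ranked peak lists between replicates. The aligner, any filter or threshold, or the selection of the combined list was not given in the sources used here. A score stands beside every peak, as deposited by the authors, whose scale no header explains and whose ceiling differs between lists. For this reason no score is compared across lists. Peak numbers were used as ranks within a list, and set side by side between the replicate lists for regions found in both.

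Identical intervals were counted once, with their lowest number. Overlap meant at least 1 bp shared, with both ends counted. Positions of a region were taken at its midpoint. Named regions were chosen by peak number, width, gap, window count, missing match and ratio of replicate numbers. Intervals are 95% exact Poisson and Clopper-Pearson intervals. No p-value was computed, since regions are not replicates and the study holds no second group of ChIP samples. Alternatives were 50% reciprocal overlap, other spans, windows and parts of the list, and single replicates. The overlap, gap and window steps were tested on simulated intervals. The regions and comparisons were chosen with earlier results of these data known. The table of gene positions at hand is of another build and was not used. Python 3.11.15, numpy 2.4.6, pandas 2.3.3, scipy 1.17.1 and matplotlib 3.10.9 were used.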

Additional observations from a re-analysis of the deposited data

How the results depend on the processing

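No paired analysis was possible because no result comes from a test, and the inputs numbered like the ChIP libraries had no list. Of 23 alternatives to 7 results, 18 moved the value by less than the spread between replicates, its binomial interval or 1.5 times a count. The alternatives that leave out a replicate draw on the same lists that give this spread, so staying within it is no independent check. Limiting the combined list to the 50% with the lowest numbers lengthened the median gap to 22390 bp, which follows from removing regions. The share of members matched in both replicates was 88.8% with 50% reciprocal overlap (89.1% over all chromosomes). Against the 3195 lowest numbers of each replicate it was 80.6%, beside 76.9% on the other chromosomes. That pool includes X with 69.1%, while I, II, IV and V had 77.2 to 78.9%. Among members within the 50% of the combined list with the lowest numbers, the share matched in both replicates was 100%. Of the 71 members lost with reciprocal overlap 58 were narrower than 324 bp, and for numbers 501 to 1000 the share was 64.6%. The median number in the central 50% minus that outside it was 19, and it ranged from -35.5 to 31 when either replicate supplied the numbers. Leaving out a replicate, with the other list limited to its 3195 lowest numbers except for the last value below, gave 659 to 688 regions, a central share of 60.1 to 60.9%, a median gap of 11535 to 13056 bp, a fullest window of 12 to 13 regions and 24.9 to 25.4% of the 1000 lowest numbers. Over the whole replicate lists, with 4010 and 4689 regions, the central share was 52.3% and 54.3%. With windows at any start the fullest 100 kb held 15 regions. Read depth is unknown, and a place without a peak is not shown to be unbound.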
